A study of Mus musculus with 24 samples.

Results

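DNA methylation was lower in the heart than in both the liver and the brain at 16012 of the 758685 tiles of 100 bp that were measured in all 3 tissues of the mouse, which is 2.11% of them. These tiles are called heart-low tiles here. They were chosen by their own levels. The mean fraction of methylated reads over the heart libraries had to lie at least 0.3 below the liver mean and at least 0.3 below the brain mean, and the liver and brain means had to lie within 0.2 of each other. The levels themselves are therefore a description, and no test was made of them. The sequence, position, clustering and genes of the tiles were not used in the choice, but they are descriptions too, given beside the same values over other tiles. Turned to the liver, the same rule took 13757 tiles (1.81%), and turned to the brain it took 6279 (0.828%). These are the liver-low and brain-low tiles used for comparison.

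Untreated C57Bl/6J mice of 24 weeks were measured by enhanced reduced representation bisulphite sequencing (RRBS), which reads methylation at cytosines followed by guanine (CpGs) in the CpG-richer part of the genome. The tables hold 12 liver, 6 brain and 6 heart libraries, with males and females in equal number in each tissue. Liver came from the caudal left lobe, brain from a rostral coronal slice and heart from an apical slice, and by the mouse numbers in the labels the brain and heart animals were among those that gave the livers. The columns of the tables do not say which mouse or gender they hold, so tissues were compared without pairing, and each library is named here by its tissue and column number. A tissue piece is a mixture of cell types. Loss of methylation in a larger share of the cells and a more complete loss in fewer cells cannot be told apart in such values.

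Methyl groups on CpGs are laid down widely across the mammalian genome and are mostly absent from the CpG islands of promoters. Away from promoters, loss of methylation over short stretches is a known mark of enhancers, the sequences that raise transcription of a gene from a distance, and these stretches differ between cell types. Enhancers of heart muscle are known to be bound by factors of the GATA, MEF2, TEAD and NKX2 families. GATA factors also act in endothelial and blood cells, while HNF4 and C/EBP factors act in hepatocytes.

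The sequences of 7 heart-low tiles are shown to give the reader the kind of DNA that is described below. They come from 4 of the 10 clusters with the most heart-low tiles and from the 10 tiles with the largest difference, as described further on. Capitals mark CpGs, the GATA motif AGATAA and the MEF2 motif CTAAAAATA, on either strand. The bases are the plus strand of the mm10 reference (GRCm38.p6), and the first run holds a pair of adjoining tiles.
Hspg2 intron 1, chr4:137484001-137484200: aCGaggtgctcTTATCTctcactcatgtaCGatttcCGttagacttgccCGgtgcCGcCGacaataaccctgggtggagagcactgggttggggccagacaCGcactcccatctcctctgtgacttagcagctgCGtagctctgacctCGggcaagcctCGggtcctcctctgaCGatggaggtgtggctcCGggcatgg
upstream of Runx1, chr16:92883901-92884000: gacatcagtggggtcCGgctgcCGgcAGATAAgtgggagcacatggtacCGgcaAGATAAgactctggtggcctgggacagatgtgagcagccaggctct
Rbpms intron 1, chr8:33885401-33885500: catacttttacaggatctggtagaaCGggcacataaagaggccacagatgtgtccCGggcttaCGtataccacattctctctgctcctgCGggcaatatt
Epas1 intron 2, chr17:86801801-86801900: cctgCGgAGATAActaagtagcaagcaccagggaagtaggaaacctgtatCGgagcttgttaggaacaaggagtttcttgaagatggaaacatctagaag
Epas1 intron 2, chr17:86802101-86802200: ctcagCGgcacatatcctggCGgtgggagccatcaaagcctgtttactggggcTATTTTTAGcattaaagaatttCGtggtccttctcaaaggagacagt
Cd36 intron 1, chr5:17844601-17844700: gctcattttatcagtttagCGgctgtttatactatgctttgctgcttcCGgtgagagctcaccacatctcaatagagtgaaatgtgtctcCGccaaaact

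The tile upstream of Runx1 holds the GATA motif at 2 places, and its heart libraries lay between 0.059 and 0.078, below the lowest liver library at 0.314 and the lowest brain library at 0.333. The Epas1 tile with the MEF2 motif lay between 0.040 and 0.157 in heart, between 0.587 and 0.755 in liver and between 0.310 and 0.643 in brain.

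Brain library 1 stood apart from the other brain libraries and is described before the results that rest on it. Its mean over the heart-low tiles was 0.644, while brain libraries 2 to 6 lay between 0.737 and 0.759. When the tiles were chosen without it, it was still the lowest of the 6 brain libraries at 54.8% of the 17278 tiles taken, against 24.1% of all tiles, and brain libraries 2 to 6 were each the lowest at 7.54% to 10.2%. Its levels followed the heart mean more closely than those of the others, with a Pearson r of 0.931 against 0.895 to 0.907 across 758685 tiles, a description of tiles that share the same libraries. At 9043 tiles where heart lay 0.3 or more above brain libraries 2 to 6, it was higher than they were, at 0.493 against a mean of 0.401. The 17278 and the 9043 tiles were chosen by brain libraries 2 to 6 and not by library 1, which favours such differences. How much of them comes with that choice was not tested. The 24.1% over all tiles and the Pearson r do not rest on it. The part of brain library 1 in the results below was not tested, and key values are given with and without it. Of the 16012 heart-low tiles, 15627 (97.6%) were also taken without brain library 1, which is 90.4% of the set taken without it.

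The tissue labels were checked at the promoters of marker genes, within 1000 bp of the start. All 4 hepatocyte markers with tiles were lowest in liver, among them Hnf4a at 0.228 in liver, 0.683 in heart and 0.887 in brain. Of 5 cardiomyocyte markers with tiles, 2 were lowest in heart, Myl2 and Tnni3. Nppa and Myh7 were lowest in brain at their promoters, at 0.373 and 0.263, and Ryr2 was near 0.1 in all 3 tissues. Of 7 neuron and glia markers, 4 were lowest in brain, most by little. Myh6, Tnnt2 and Actc1 had no promoter tile in all 3 tables, so the promoters alone do not settle the heart label. The sarcomere genes as a whole, over their full spans, had a mean level of 0.594 in heart against 0.729 in liver and 0.725 in brain, while over the tiles of all genes the means were 0.549, 0.598 and 0.589. This gene list was written with earlier results of these data known, and 118 of its 1282 tiles were heart-low. A list of endothelial genes was also lowest in heart, at 0.527 against 0.646 in liver and 0.648 in brain. The sarcomere means therefore do not settle the heart label either.

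The heart mean over libraries had a median of 0.330 over the tiles, with the middle 80% between 0.154 and 0.486 and a highest value of 0.681, while the liver median was 0.743 and the brain median 0.741. A heart mean under 0.1 was found in 691 heart-low tiles (4.32%). The bin with the most heart-low tiles was 0.3 to 0.4, with 4790 of them (29.9%). The difference to the lower of liver and brain had a median of 0.360, and it reached 0.4 in 4518 tiles (28.2%), 0.5 in 784 (4.90%) and 0.6 in 106.

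The 6 heart libraries were close to each other. Their means over the heart-low tiles ran from 0.317 to 0.334 (0.326 ± 0.00744, SD, n = 6), those of the liver libraries from 0.728 to 0.751 (0.736 ± 0.00855, SD, n = 12) and those of the brain libraries from 0.644 to 0.759 (0.730 ± 0.0430, SD, n = 6). Without brain library 1 the brain mean was 0.747 ± 0.00982 (SD, n = 5). Over all tiles, heart was also the lowest tissue, by far less, with means of 0.598 in heart, 0.653 in liver and 0.652 in brain. Within single tiles the libraries spread more widely than these means. The median range between the lowest and highest library was 0.156 in heart, 0.214 in liver and 0.229 in brain.

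**Figure D1:**
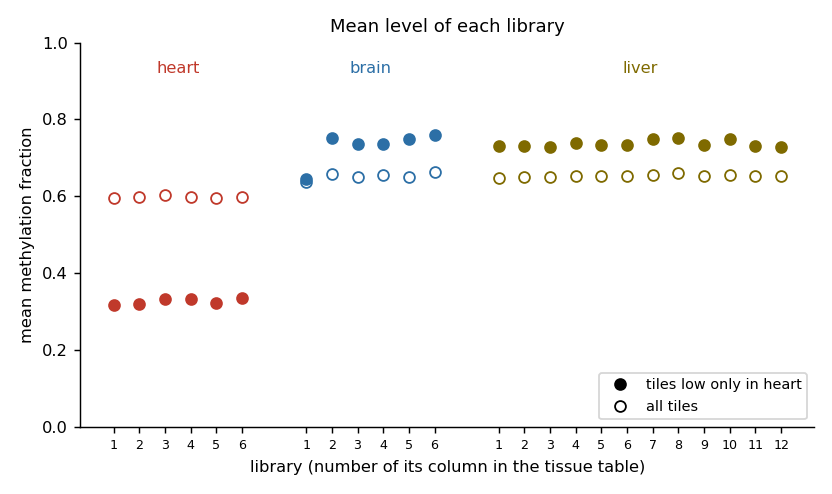
Mean methylation fraction (y axis) of each of the 24 libraries, named by column number on the x axis, over the 16012 heart-low tiles (filled) and over all 758685 tiles (open). The heart libraries sit between 0.317 and 0.334 in the heart-low tiles, and brain library 1 at 0.644 lies below the other brain libraries.

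In 14731 heart-low tiles the highest heart library lay below the lowest liver and the lowest brain library. The same held at 6.77% of all tiles, and since the choice used these same libraries, nothing is read from the difference. With brain library 1 left out of the comparison it held in 15268 (95.4%), against 7.60% of all tiles. A heart library that took no part in the choice gives a less circular view of the heart side alone. When each heart library in turn was left out and the tiles were chosen from the other 5, the mean of the left-out library was above theirs by 0.000672 to 0.0183, and 72.9% to 79.5% of the tiles still had a difference of 0.3 or more in that single library. The liver and brain means were still those used in the choice. The same share over other tiles is not given, so these values describe the heart libraries only. The tiles near the limit were many. There were 3101 tiles with a difference from 0.3 to 0.32 and 3612 from 0.28 to 0.3 that failed only on the difference. The last tile taken, at chr1:42771001-42771100, had 0.427 in heart, 0.727 in liver and 0.783 in brain. The first left out, at chr2:66541701-66541800, had 0.486, 0.786 and 0.863. A further 804 tiles passed both differences but had liver and brain more than 0.2 apart.

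The heart-low tiles were poor in CpGs. They held 2.33 CpGs per tile on average against 3.37 over all tiles, 2.44 in liver-low and 2.80 in brain-low tiles. Only 24 of them (0.150%, exact 95% interval 0.0961 to 0.223, which covers counting error alone and treats tiles as independent) touched a CpG island, against 10.5% of all tiles. Most of this contrast comes with the rule, because a tile that is unmethylated in every tissue cannot be taken. Among the 516195 tiles at 0.3 or more in liver and in brain and within 0.2 of each other, which are the tiles the rule could take, 3.10% were heart-low, the mean number of CpGs was 2.54 and 0.603% touched an island. The decline with CpG number was also present in these tiles. Heart-low tiles were 3.27% of them at 1 CpG, 3.31% at 2, 2.29% at 5, 1.09% at 7 and 0.507% at 10 or more. A decline was not particular to heart. Of all tiles, liver-low tiles were 2.24% at 2 CpGs and 0.0386% at 10 or more, and brain-low tiles 0.915% and 0.0748%. The brain-low tiles had more CpG-dense members, with 13.3% holding 5 or more CpGs against 6.46% of heart-low tiles, and 1.23% touching an island.

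Most heart-low tiles lay in introns and between genes. By the curated RefSeq transcripts, 7239 (45.2%) were intronic, 6938 (43.3%) intergenic, 1136 (7.09%) touched coding sequence, 400 touched other exon sequence and 299 (1.87%) touched a promoter, taken as the 1000 bp before a transcription start. Over all tiles the shares were 36.2% intronic, 42.1% intergenic, 10.7% coding and 7.41% promoter. The promoter comparison depends on the tiles it is set against. Among tiles the rule could take the promoter share was 1.36%, below that of the heart-low tiles, and the intronic share was 36.9%. The intergenic comparison turned as well, since 49.6% of those tiles were intergenic. Promoters held 3.34% of the liver-low and 2.61% of the brain-low tiles. The median distance to the nearest start was 25374 bp for heart-low tiles, 15210 bp for liver-low, 32593 bp for brain-low and 31018 bp for the tiles the rule could take. Repeats were scarce. At least 50 repeat-masked bases were found in 6.55% of heart-low tiles, 12.1% of liver-low tiles, 3.26% of brain-low tiles and 26.6% of the tiles the rule could take. The levels differed little by position, with a heart mean of 0.292 in promoter tiles, 0.328 in introns, 0.319 between genes and 0.364 in coding sequence. Between chromosomes the share of tiles that were heart-low varied from 1.72% (chromosome 7) to 2.33% (chromosome 19).

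Nearly as many heart-low tiles stood in groups as alone. Joined where at most 1000 bp separated them, the 16012 tiles formed 11776 clusters. Of these, 3196 held at least 2 tiles, and together they took in 7432 tiles (46.4%). There were 735 clusters of 3 or more tiles, and the largest had 8. Liver-low tiles were grouped more often (55.4%) and brain-low tiles about as often (47.8%), though the 3 sets differ in size. Where a tile next to a heart-low tile was covered, it was itself heart-low in 45.9% of 12579 cases. Heart-low tiles were 2.11% of all tiles and 3.10% of those at 0.3 or more in liver and brain and within 0.2. The matching neighbour shares were 56.5% for liver-low and 45.7% for brain-low tiles, so such grouping was not particular to heart.

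The lower level in heart faded with distance from the heart-low tiles. In covered tiles 100 to 200 bp away from a heart-low tile the heart mean was 0.434 against 0.729 in liver and 0.724 in brain. At 300 to 500 bp it was 0.520 against 0.719 and 0.711, and at 600 to 1000 bp 0.575 against 0.699 and 0.686. At 2100 to 3000 bp the difference between heart and the lower of the other tissues was 0.0744, near the 0.0545 found over all tiles. The neighbours that were not heart-low themselves showed a smaller dip of the same shape, from a difference of 0.202 at 100 to 200 bp to 0.0544 at 2100 to 3000 bp. Liver and brain were highest near the heart-low tiles, at 0.736 and 0.730 in the tiles themselves. They fell to 0.641 and 0.639 at 2100 to 3000 bp, near their means of 0.653 and 0.652 over all tiles. The rule cannot take a tile that is low in liver or brain, so high levels at the tiles come with the choice, as does the low heart level there. Nothing is read from the fall of liver and brain away from them. Fewer tiles were covered farther away, with 6333 at 100 bp and 937 at 1000 bp towards higher positions. The distances therefore do not compare the same places. No such profile is given for liver-low or brain-low tiles.

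**Figure D2:**
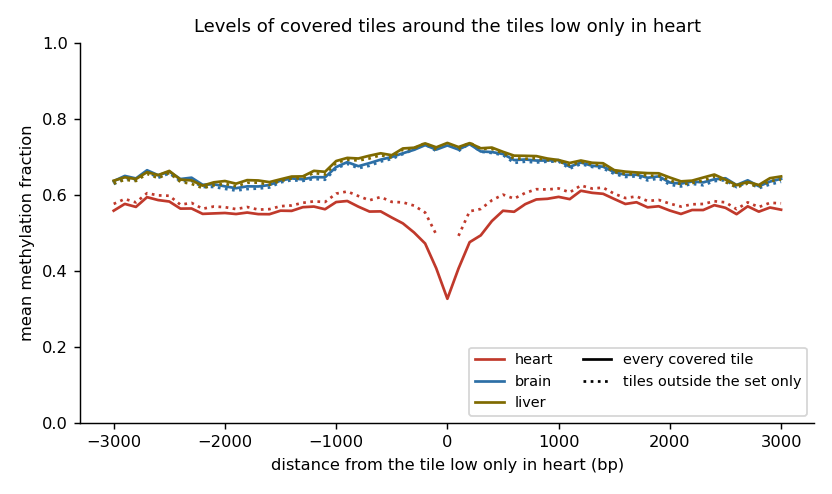
Mean methylation fraction (y axis) of covered tiles against their distance in bp from the heart-low tiles (x axis), for heart, brain and liver, with every covered tile as solid lines and tiles that were not heart-low as dotted lines. The heart line falls to 0.326 at the heart-low tiles and is back near the other tissues beyond 1000 bp, while liver and brain show no dip. The rule leaves out tiles that are low in liver or brain, so their high levels at the heart-low tiles come with the choice, as does the low heart level there.

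The 10 clusters with the most heart-low tiles are described by library. Their tiles were chosen by the levels of these libraries, so a lack of overlap between tissues is largely fixed by the rule. The cluster with 8 tiles and the largest mean difference among those of its size lay in intron 1 of Hspg2 at chr4:137484001-137486300. Hspg2 encodes perlecan, a heparan sulphate proteoglycan of basement membranes. Its heart libraries ran from 0.0784 to 0.135 (median 0.111), its liver libraries from 0.557 to 0.706 (median 0.622) and its brain libraries from 0.481 to 0.764 (median 0.673), with brain library 1 as the lowest. The groups did not overlap.

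A cluster of 6 tiles in intron 1 of Rbpms, at chr8:33885401-33886000, had the largest mean difference of the 10, at 0.608. Rbpms encodes an RNA-binding protein of muscle cells. The heart libraries lay between 0.0515 and 0.0870 (median 0.0724), the liver libraries between 0.638 and 0.752 (median 0.708) and the brain libraries between 0.428 and 0.807 (median 0.737). Brain library 1 was at 0.428, and the next brain library was at 0.705. No heart library came near either tissue.

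The next by mean difference among the 10, at chr7:19755501-19757000, ran past the 3′ end of Bcam, which encodes a laminin-binding adhesion molecule, and its 7 tiles took in intergenic, non-coding exon, coding and intron sequence. Heart was between 0.114 and 0.149, liver between 0.664 and 0.765 and brain between 0.612 and 0.707. The cluster at chr16:38362301-38363200 was centred on exon 1 of Popdc2, and all 7 of its covered tiles touched exon sequence. Popdc2 encodes a membrane protein of the Popeye family that is abundant in heart muscle. Its heart libraries ran from 0.223 to 0.274, its liver libraries from 0.669 to 0.780 and its brain libraries up to 0.807 (median 0.769), with libraries 2 to 6 at 0.713 or above and library 1 below them. Heart lay apart from the others at this exon as well, so not every large cluster was remote from a start.

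A pair of the clusters was intergenic. The cluster at chr16:92883601-92884300 lay upstream of the nearest start, at -57876 bp from that of Runx1, a transcription factor of blood formation, and had 0.172 to 0.242 in heart, 0.616 to 0.703 in liver and 0.541 to 0.770 in brain. The cluster at chr10:8944801-8945700 lay at -59180 bp from the start of Sash1 and had 0.219 to 0.327 in heart, 0.623 to 0.779 in liver and 0.594 to 0.783 in brain. Nearness to a start does not show which gene, if any, such a stretch acts on.

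The remaining clusters were in genes. In intron 2 of Epas1, at chr17:86801701-86802400, heart ran from 0.159 to 0.250 against 0.657 to 0.760 in liver and 0.552 to 0.669 in brain. Epas1 encodes HIF-2α, a hypoxia-responsive transcription factor that is abundant in endothelium. Clusters in Ddx39a (chr8:83721601-83722400), Rasgrp2 (chr19:6412601-6413400) and Pitpnm2 intron 2 (chr5:124213301-124215100) had higher heart levels, with medians of 0.315, 0.343 and 0.307, and liver medians of 0.736, 0.786 and 0.762. In each of the 10 clusters every heart library lay below every liver and brain library, as was so in 92% of all heart-low tiles. The rule used these levels, so nothing is read from it.

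**Figure D3:**
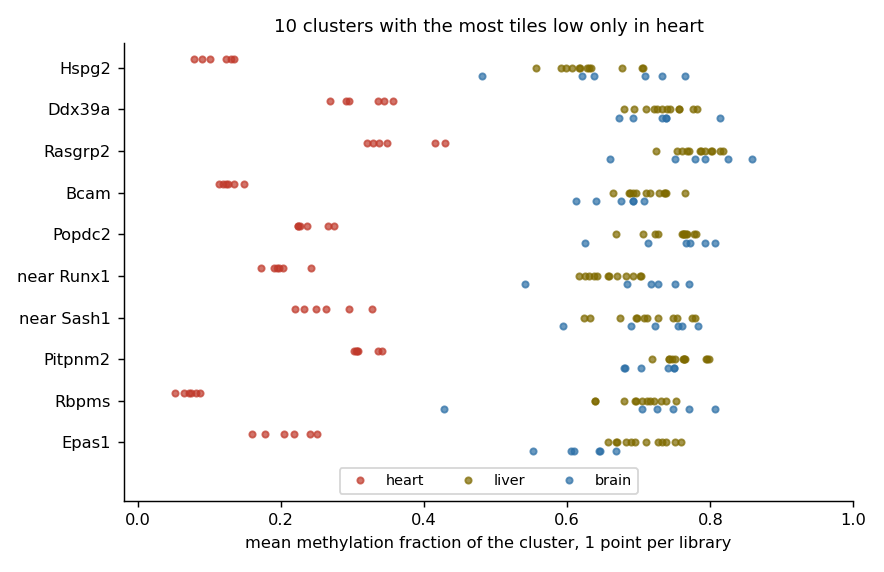
Mean methylation fraction (x axis) over the heart-low tiles of each of the 10 clusters with the most of them (rows, named by the gene they lie in or the nearest start), with 1 point per library for heart, liver and brain. Heart points stay at or below 0.430 and liver and brain points at or above 0.428, and within each row they do not overlap. The tiles were chosen by these levels.

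The 10 single tiles with the largest differences were all intronic. Among them were tiles in intron 1 of 2610020C07Rik (difference 0.711), intron 2 of Map4k4 (0.701), intron 1 of Heg1 (0.701) and intron 1 of Cd36 (0.695). Heg1 encodes a receptor of heart and vessel development, and Cd36 the fatty acid translocase of muscle and endothelium. The Cd36 tile ran from 0.067 to 0.209 in heart, 0.755 to 0.945 in liver and 0.381 to 0.948 in brain, where library 1 was the lowest and the next was at 0.867. Intron 1 of Lrrc8c, a subunit of volume-regulated anion channels, held 2 of the 10 tiles, with heart medians of 0.0385 and 0.052, liver medians of 0.754 and 0.748 and brain medians of 0.945 and 0.919. Further tiles of the 10 lay in Pakap intron 7, Tnnt1 intron 5 and St6galnac3 intron 3. The tiles in 2610020C07Rik and St6galnac3 hold 1 CpG each. Their brain libraries ran from 0.618 to 0.951 and from 0.5 to 0.917. Tnnt1 encodes slow skeletal troponin T and lies beside the cardiac troponin I gene Tnni3 in the genome. Its tile had a heart median of 0.024 and a highest heart library of 0.188, below the lowest liver library at 0.632.

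Genes were given a tile where it touched the span from 5000 bp upstream of the start to the end of the transcript. By this measure 9618 heart-low tiles (60.1%) touched a gene, as did 61.2% of all tiles. Of 22392 genes with a tile, 4519 had at least 1 heart-low tile (20.2%), 2337 had exactly 1 and 93 had 10 or more. Long genes have more tiles and so more chances, and the genes with a heart-low tile had a median of 32 tiles against 16 over all genes. Levels given below for a gene are means over its heart-low tiles alone, unless its promoter is named.

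Hspg2 led with 44 heart-low tiles of 176. Their mean ran from 0.234 to 0.254 over the heart libraries, 0.701 to 0.760 over the liver libraries and 0.604 to 0.777 over the brain libraries. With tiles joined across up to 5000 bp, 38 of them formed a single stretch of 38300 bp, the longest run of heart-low tiles in number. Col4a2, a chain of the type IV collagen of basement membranes, had 27 of 122 tiles, at 0.290 to 0.327 in heart, 0.781 to 0.832 in liver and 0.697 to 0.785 in brain. The neighbouring Col4a1 held a stretch of 10 tiles, and stretches in Pitpnm2 (14 tiles), Xirp1 (12) and Anks1 (12) held more.

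The next genes had varied roles. Sh3pxd2a, a podosome scaffold protein, had 28 of 235 tiles, and Tns1, the focal adhesion protein tensin 1, had 25 of 129. Rbpms had 24 of 126, and over these 24 tiles the heart libraries ran from 0.222 to 0.244. Ttc28 had 24 of 246, Prkch (protein kinase C eta) 23 of 150, Tshz2 (a zinc finger factor) 21 of 323, Esrrg 20 of 270 and Itpkb (an inositol trisphosphate kinase) 19 of 81. Esrrg encodes an oestrogen-related receptor that drives genes of oxidative metabolism. Its heart-low tiles ran from 0.265 to 0.315 in heart, 0.675 to 0.763 in liver and 0.629 to 0.732 in brain. Over the 10 genes the heart libraries stayed between 0.222 and 0.412, and no heart library reached a liver or brain library. These are means over tiles chosen by the same levels, so nothing is read from the lack of overlap.

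Lists of genes of heart functions were set beside lists for other cell types. These lists were written with earlier results of these data known, so a count is a description and no independent support. In the 6 heart lists together, 80 of 145 genes with tiles (55.2%) had a heart-low tile, against 20.2% of all genes. The median gene of these lists had 29 tiles against 16 over all genes, and so more chances. Counts of genes here and below are therefore to be read beside the shares of tiles. Of the 7564 tiles of the 6 lists, 4.81% were heart-low against 2.07% of the tiles of all genes. Of the tiles the rule could take, the shares were 7.57% and 3.48%. Without brain library 1 the counts were 81 genes and 5.12% of tiles against 2.25%.

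The sarcomere list, the proteins of the contractile apparatus, had 25 of 36 genes with a heart-low tile and 9.20% of its 1282 tiles heart-low, while 0.702% were liver-low and 0.0780% brain-low. Xirp1, an actin-binding protein of the intercalated disc, had 12 of 26 tiles, at 0.452 to 0.494 in heart, 0.846 to 0.896 in liver and 0.734 to 0.890 in brain. Fhod3, a formin of the sarcomere, had 11 of 118 and Ttn, the spring protein titin, 10 of 255. The heart levels of Xirp1 and Ttn were higher than those at Hspg2 or Rbpms, and the liver and brain levels were higher too.

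Calcium handling genes had a heart-low tile in 11 of 14, with 7.19% of tiles heart-low. Cacna1c, the pore of the L-type calcium channel, had 18 of 303 tiles at 0.363 to 0.417 in heart, 0.767 to 0.828 in liver and 0.704 to 0.803 in brain. Ryr2, the calcium release channel, had 17 of 121 tiles at 0.373 to 0.421 in heart, 0.711 to 0.792 in liver and 0.672 to 0.807 in brain. At Ryr2 the heart-low tiles contrast with its promoter, which was near 0.1 in all 3 tissues. Jph2, which holds the calcium release units together, had 11 of 53 tiles and the kinase gene Camk2d 8 of 70. Pln, the phospholamban gene, had no tile in all 3 tables.

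Ion channel and gap junction genes had a heart-low tile in 11 of 22 and in 2.89% of tiles, near the 2.07% over all genes, and in 4.55% of the tiles the rule could take, against 3.48%. Kcnq1, a potassium channel of repolarisation, had 9 of 107 heart-low tiles and also 10 brain-low ones. Kcna5 had 3 of 8 and the pacemaker channel gene Hcn4 3 of 52. Over the 3 heart-low tiles of Hcn4 the heart libraries ran from 0.218 to 0.319, the liver libraries from 0.484 to 0.693 and the brain libraries from 0.652 to 0.818.

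Heart transcription factor genes had a heart-low tile in 10 of 26, and 3.47% of their tiles were heart-low. Many of their tiles were low everywhere, with list means of 0.376 in heart, 0.436 in liver and 0.402 in brain. Of the 534 tiles that the rule could take, 9.36% were heart-low. Prdm16 had 19 of 334 tiles, at 0.311 to 0.348 in heart, 0.721 to 0.771 in liver and 0.645 to 0.772 in brain. Tead1, a factor that binds the TEAD motif, had 12 of 113, and Gata4, a GATA factor of heart muscle, had 7 of 66, at 0.375 to 0.461 in heart, 0.709 to 0.845 in liver and 0.665 to 0.848 in brain. Hopx, a homeodomain-only regulator, had 3 of 47.

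Genes of fatty acid and energy metabolism had a heart-low tile in 12 of 26 and 5.30% of tiles heart-low, and 3.57% liver-low. Apart from Esrrg, the myoglobin gene Mb had 5 of 29 tiles at 0.273 to 0.318 in heart, 0.704 to 0.765 in liver and 0.614 to 0.696 in brain. Cd36 had 4 of 15 and Pygm, the muscle glycogen phosphorylase, 4 of 18. The signalling list had a heart-low tile in 11 of 21 genes and 2.57% of tiles, near the 2.07% over all genes. Of the tiles the rule could take, 3.74% were heart-low against 3.48% over all genes, so nothing is read from its share. Its leading genes were the phosphodiesterase gene Pde4d with 8 of 251 and the calcineurin regulator Rcan1 with 8 of 52, followed by Akap13 with 7 of 67 and Camta1 with 6 of 568. The heart-low share at Camta1, 1.06%, was below that over all genes, and 14 of its tiles were liver-low. Rcan1 had the lowest heart levels of the 4, at 0.189 to 0.233, against 0.647 to 0.744 in liver and 0.538 to 0.765 in brain.

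The list with the highest share was endothelial. Endothelial cells line blood vessels and are not muscle. A heart-low tile was present in 13 of 16 genes, and 12.8% of the 642 tiles were heart-low, 0.467% liver-low and none of the 642 brain-low, where a count of 0 is for these tiles alone. Without brain library 1, 14.2% of the tiles were heart-low. Kdr, the main receptor of vascular endothelial growth factor, had 14 of 34 tiles, at 0.328 to 0.378 in heart (median 0.352), 0.683 to 0.782 in liver (median 0.739) and 0.650 to 0.853 in brain (median 0.783). Flt1, another receptor of this growth factor, had 14 of 132, the adhesion molecule gene Pecam1 12 of 44 and the transcription factor gene Erg 11 of 113. Over the 12 heart-low tiles of Pecam1 the heart libraries ran from 0.346 to 0.383, the liver libraries from 0.742 to 0.838 and the brain libraries from 0.632 to 0.787. How far endothelial cells and muscle cells each contribute to a heart level was not tested.

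The other lists had shares near or below the 2.07% over all genes, and nothing is read from small lists at such a share. Fibroblast and matrix genes had a heart-low tile in 2 of 11 (1.42% of tiles), Ddr2 with 3 tiles and Col1a2 with 1. Smooth muscle and pericyte genes had a heart-low tile in 2 of 8 (2.42% of tiles), Pdgfrb with 3 and Smtn with 2. Skeletal muscle genes had a heart-low tile in 6 of 20 (1.66% of tiles), led by Pax7 with 4 tiles and Cacna1s with 2, and Ryr1 and Atp2a1 had 1 each. The Atp2a1 tile was at 0 in every heart library but ranged from 0 to 0.733 over the brain libraries, so it is a weak example. Neuron and glia genes had a heart-low tile in 5 of 15 (0.818% of tiles), Slc1a2 and Rbfox3 with 2 each and Aldh1l1, Camk2a and Mbp with 1 each, while 1.64% of the tiles were brain-low. None of 9 immune genes, with 91 tiles, and none of 14 hepatocyte genes had a heart-low tile. In the hepatocyte list, 36.6% of 194 tiles were liver-low and the rule could take only 67, so its count of 0 is largely fixed by the rule. Without brain library 1 the hepatocyte list had 1 heart-low tile.

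**Figure D4:**
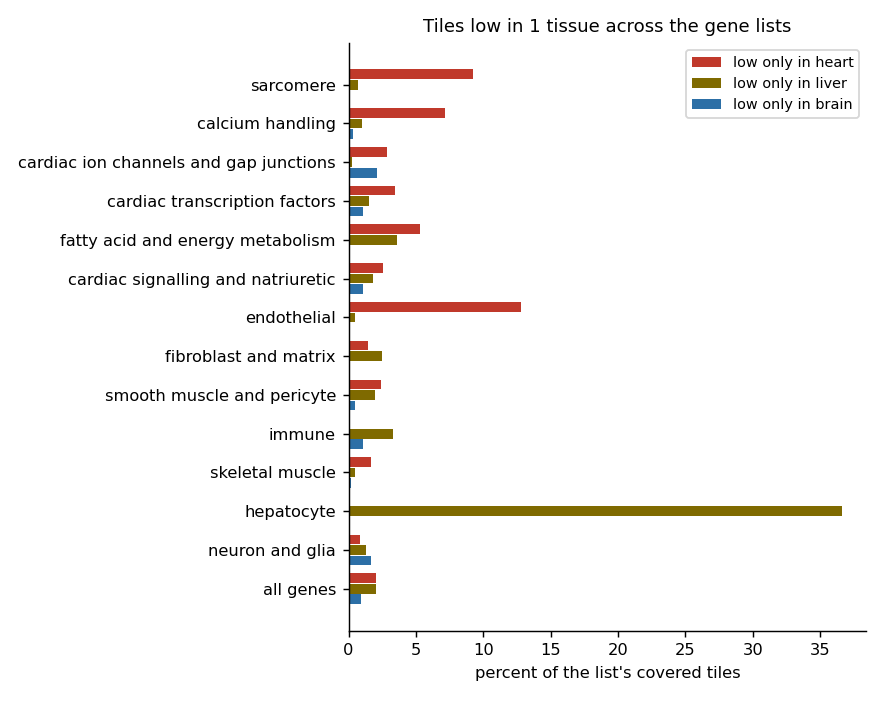
Percent of the covered tiles of each gene list (x axis) that were low only in heart, liver or brain by the same rule, for the 13 lists and for all genes (rows). Heart-low tiles reach 12.8% in the endothelial and 9.20% in the sarcomere list against 2.07% over all genes, and liver-low tiles 36.6% in the hepatocyte list.

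RefSeq annotates the VISTA enhancers, human or mouse sequences tested for activity in mouse embryos, with the tissues in which they were active. This comparison was chosen after the data were seen. Of 84 enhancers with heart activity and a covered tile, 20 held a heart-low tile, and 28 of their 271 tiles (10.3%) were heart-low, none were liver-low and 1 was brain-low. Of 264 without heart activity, 15 held a heart-low tile, and 21 of their 1008 tiles (2.08%) were heart-low, near the 2.11% over all tiles. Enhancers active in heart alone had 17 of 130 tiles heart-low (13.1%), and those active in neural tissue without heart had 11 of 682 (1.61%) with 27 brain-low (3.96%). Of the tiles the rule could take, 23.5% were heart-low in the enhancers with heart activity and 5.77% in those without. Over all tiles the rule could take, the share was 3.10%. Enhancers active in neural tissue without heart had 4.91% and the others without heart 7.14%, so a share above 3.10% was not particular to heart activity. Leaving out brain library 1 gave 28 and 24 heart-low tiles.

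Enhancer mm77 at chr5:122092218-122094768, active in heart and nearest to Myl2, the ventricular myosin light chain gene, had 3 of 4 tiles heart-low. They ran from 0.454 to 0.527 in heart, 0.908 to 0.969 in liver and 0.859 to 0.952 in brain. Enhancer mm235 at chr13:42258101-42259051, nearest to the endothelin gene Edn1, had 3 of 3, at 0.140 to 0.269 in heart, 0.663 to 0.813 in liver and 0.525 to 0.863 in brain. Both were chosen after their values were seen, as the enhancers with the most heart-low tiles. The embryonic activity and the adult methylation level are different measurements at different ages.

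Short motifs of transcription factors were counted in the tiles on both strands. A match is a string of letters and not a bound site. The GATA motif, AGATAA, was in 10.4% of heart-low tiles, 4.46% of liver-low tiles, 2.17% of brain-low tiles and 4.24% of all tiles. MEF2 (CTAAAAATA or CTATTTATA) was rare, in 0.699% of heart-low tiles (112 tiles), 0.124% of liver-low, 0.143% of brain-low and 0.187% of all tiles. TEAD (GGAATG) was in 7.58%, 5.05%, 5.48% and 5.08%. Against the tiles the rule could take, the ratios of the heart-low shares were 2.25 for GATA, 3.88 for MEF2 and 1.45 for TEAD. NKX2 (TNAAGTG) was in 5.16% of heart-low and 4.38% of all tiles and thus differed little.

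The remaining motifs had their highest share in liver-low or brain-low tiles. HNF4 (CAAAGTCC) was in 1.47% of liver-low tiles, 0.337% of heart-low and 0.384% of all tiles, and the order of the last pair turned when 100 bp were added on both sides. CEBP (TTGCNNAA) was in 6.09% of liver-low, 4.08% of brain-low, 3.07% of heart-low and 3.54% of all tiles. The motif of oestrogen-related receptors, ERR (AAGGTCA), was in 4.22% of liver-low tiles, 1.92% of heart-low tiles and 1.76% of all tiles. The E-box CAGCTG was in 8.36% of brain-low and 6.56% of heart-low tiles against 5.38% of all tiles, and SOX (ACAATG) in 6.98%, 5.13% and 3.93%.

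The GATA and MEF2 letters are rich in A and T, so the shares were also read in bands of GC content, a comparison added after the data were seen. At 40 to 45% GC, GATA was in 15.7% of heart-low and 7.26% of all tiles and MEF2 in 1.45% and 0.339%. At 50 to 55% GC the shares were 9.37% and 3.46% for GATA and 0.316% and 0.0973% for MEF2. From 65 to 70% GC, with 172 heart-low tiles, GATA was in 0.581% of them, no more often than among all tiles of that band. By the size of the difference, which the rule used, GATA was in 9.79% of heart-low tiles at 0.3 to 0.35, 9.98% at 0.35 to 0.4, 11.6% at 0.4 to 0.5 and 12.8% of the 784 tiles above. MEF2 was in 0.511%, 0.409%, 1.21% and 1.66%, and TEAD went from 8.23% at 0.35 to 0.4 to 7.10% at 0.4 to 0.5, so neither rose at every step.

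**Figure D5:**
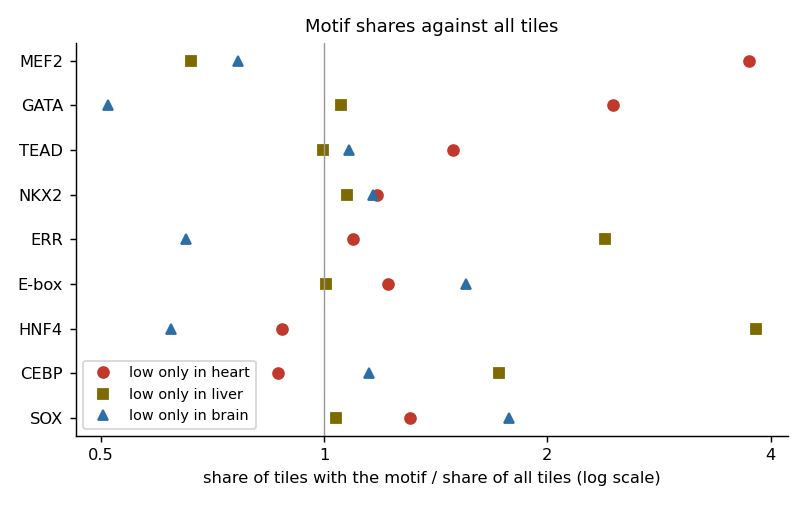
Share of tiles with each motif in the heart-low, liver-low and brain-low tiles divided by its share of all tiles (x axis, log scale), for 9 motifs (rows). In heart-low tiles MEF2 lies at 3.74, GATA at 2.45 and TEAD at 1.49, and in liver-low tiles HNF4 lies at 3.82.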

How the data were processed

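The labels describe untreated C57Bl/6J mice, with genomic DNA of liver, brain and heart put through an enhanced RRBS service. Libraries and mapping were done by the service's provider with its own methods (the submitters' processing notes name Bismark, methylKit and mm10). The authors then used methylKit 0.99.2 to pool CpGs into tiles of 100 bp with more than 10 reads in every library of a tissue and below the 99.8th percentile of coverage. The deposited values are the methylation fraction of each tile and library. No read counts were used here, so the depth behind each fraction is unknown beyond that minimum, and no interval can be given for a single level. There were 819713 tiles for liver, 942643 for brain and 930358 for heart, all on autosomes, and 758685 were shared by all 3.

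Columns were assigned to a tissue by their table, with as many columns as the labels give samples. The mean over columns was taken per tissue and the rule applied with Python 3.11.15, numpy 2.4.6 and pandas 2.3.3. CpGs, repeats and motifs were read from GRCm38.p6 and positions from 43783 curated RefSeq transcripts. CpG islands were called on repeat-masked sequence (over 200 bp, GC of at least 50.0%, observed to expected CpG ratio above 0.6). The functions were tested on simulated data. Exact (Clopper-Pearson) 95% intervals cover counting error only.

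The tiles, gene lists and motifs were chosen with earlier results of these data known. Genes named are the 10 with the most heart-low tiles and up to 4 per list. A few items that this rule names are not reported here. Clusters named are the 10 with the most tiles, and single tiles the 10 with the largest difference. Mbp, Col4a1, Anks1, Myl2 and Edn1 were named after their values were seen. No test was run on levels the rule had used, and other settings are given in the closing section.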

Additional observations from a re-analysis of the deposited data

Results flagged for a closer look

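Among 42 groups of 6 libraries (heart and brain, over the 10 clusters, the 10 tiles and the mean over all heart-low tiles), 4 had a lowest or highest library whose gap to the nearest of the others took up an unusually large part of the group's range. Chance flags about 1 in 20 such groups. All 4 were brain library 1 as the lowest of its group. It was at 0.644 in the mean over the heart-low tiles, where the next brain library was at 0.737. It was at 0.428 in the Rbpms cluster, at 0.381 in the Cd36 tile and at 0.538 in the first of the Lrrc8c tiles, with the next brain libraries at 0.705, 0.867 and 0.900. The tiles and clusters enter into the mean, so these are not separate observations. In all 4 groups brain library 1 lay on the side of the heart libraries but above the highest of them.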

How the results depend on the processing

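Of 164 values under other settings, most of them with 1 library left out, 145 stayed within 1.5 times the main count or within the main value's replicate spread or 95% interval. The number of heart-low tiles was 12478 with liver and brain within 0.1, 11076 with 2 or more CpGs, 42042 with a difference of at least 0.2 and 4518 with 0.4, and the median difference followed at 0.273 and 0.440. With 0.4 the mean number of CpGs was 2.35, the intron share 46.0%, the share with another heart-low tile within 1000 bp 37.1% and the share of heart list genes with a heart-low tile 35.2%. Tiles whose libraries did not overlap held 2.36 CpGs. Promoters of 2000 bp took in 3.43% of the tiles, and 1000 bp on both sides of the start 3.89%. With 2 or more CpGs the intron share was 44.4%. Adjoining tiles alone gave 32.8% of tiles in groups, a distance of 100 bp 42.5% and 5000 bp 52.3%. With 100 bp added on both sides of the tile the ratio to all tiles was 1.91 for GATA and 1.33 for TEAD, and without brain library 1 it was 2.33 for GATA. The HNF4 ratio moved from 0.878 to 1.02 with the added bases and so changed sides of 1.

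With each of the 24 libraries left out in turn, the number of tiles ran from 15553 to 17278 (the highest without brain library 1), the median difference from 0.359 to 0.363, the CpGs per tile from 2.31 to 2.34, the share in groups from 45.9% to 47.4% and the share of heart list genes from 49.7% to 55.9%. No paired analysis was possible because the columns carry no mouse numbers. The unknown depth limits the reading of single tiles, and a tile with 1 CpG rests on that CpG alone.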
